A study of Bos taurus with 30 samples.

Results

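The early bovine corpus luteum was compared 4 h after an injection of prostaglandin F2α (PGF2α) and at 0 h, on day 4 of the estrous cycle. The comparison takes in 5 arrays of day 4 glands collected 4 h after PGF2α and 5 arrays of day 4 glands from saline-treated animals, which are the 0 h controls, chosen by their labels. These are 10 of the 30 arrays of the study, and 24016 probe sets were tested. The study placed 30 Angus crossbred heifers at random in 6 groups of 5, by day of the cycle (4 or 11) and by hours after treatment (0, 4 or 24). Each array of the Affymetrix GeneChip Bovine Genome Array held RNA of the luteal tissue of 1 heifer, so replicates are animals. The 0 h animals had saline and no PGF2α, so the comparison is of PGF2α at 4 h with a control collected at 0 h.

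The corpus luteum forms from the follicle after ovulation and secretes progesterone. In the mature gland PGF2α acts through its receptor PTGFR, a Gq-coupled receptor that raises calcium and activates protein kinase C and MAP kinases, and the gland then stops making progesterone and regresses. The early gland carries the receptor but is known for not regressing after PGF2α, which makes its early response of interest.

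Within 4 h, many NF-kB genes and chemokines and a few growth factors, FGF2 and AREG among them, rose in the day 4 gland, while the named progesterone synthesis genes showed small differences that did not pass the test over all arrays. Of these, HSD3B1 was lower without overlap and passed in fits to the 10 arrays compared and to the 15 day 4 arrays. The largest rises were those of CCL4, FGF2, CXCL2, IL33, IL1B and AREG, and the largest falls those of PTHLH, CYP21A2 and POLR1E. A total of 1018 probe sets (4.24%) passed an adjusted p of 0.05 (limma, Benjamini-Hochberg), 645 of them higher (2.69%) and 373 lower (1.55%). With 1 probe set for each of 9155 genes, 301 genes (3.29%) were higher and 182 (1.99%) lower. Rises were larger than falls. The called probe sets that rose had a median log2 difference of 0.77, and 210 of them (32.6%) had changed at least 2-fold, 46 at least 4-fold. Those that fell had a median of -0.50, 16 of them (4.29%) had changed at least 2-fold and none 4-fold. The median difference of all genes was -0.02. The count of called probe sets was 608 without 4 h replicate 1, and the count of those lower was 205 without it, 233 without 0 h replicate 3, 236 without 4 h replicate 3 and 244 without 4 h replicate 5. With array medians subtracted, 606 were higher and 533 lower. Of the 483 called genes, 232 (48%) were called under all alternatives of the same threshold that gave them a value, 165 of 301 among the higher and 67 of 182 among the lower.

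**Figure D1:**
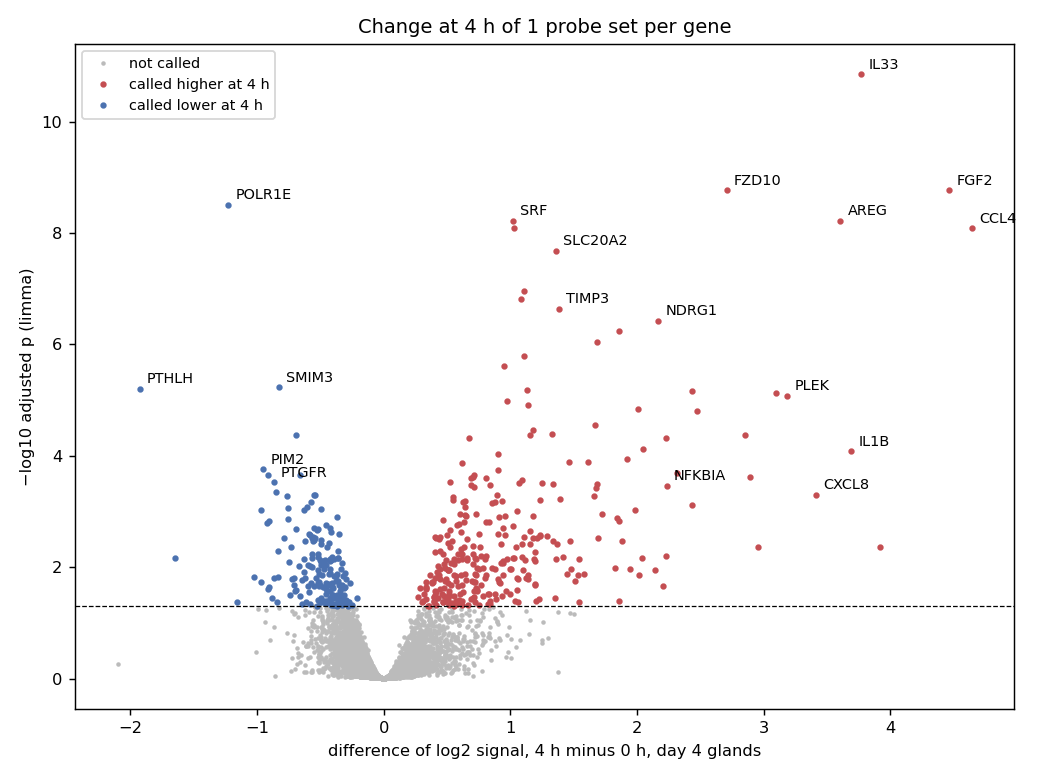
Each point is 1 gene, with the log2 difference between 4 h and 0 h day 4 glands on the x axis and −log10 of the adjusted p on the y axis, and the dashed line at an adjusted p of 0.05. Of 9155 genes, 301 were called higher and 182 lower, and the points on the right reach further from 0 than those on the left.

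The arrays themselves were close in their medians and in their correlation within a group. Medians of the 10 arrays lay between 6.03 and 6.15 log2 units, and arrays of a group correlated at 0.988 to 0.994 across probe sets. The 3′ minus 5′ difference of the actin controls, a sign of RNA integrity, was 1.64 to 2.10 at 0 h and 2.02 to 2.19 at 4 h (exact two-sided permutation p = 0.0635, adjusted p = 0.254 over 4 measures). The smallest p that 5 against 5 arrays allow is 0.00794. With 5 arrays a group, their number set the precision. The tissue was measured whole, so fewer cells of a type and less RNA per cell cannot be told apart.

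The receptor for the injected hormone fell. PTGFR (Entrez Gene 282020) had signals of 11.42, 11.36, 11.51, 11.40 and 11.58 in 0 h replicates 1 to 5, and of 10.27, 10.66, 10.71, 10.69 and 10.61 in 4 h replicates 1 to 5. Every 4 h gland lay below every 0 h gland, with replicate 1 the lowest. The difference was -0.87 ± 0.14 (SE, n = 5 and 5, limma adjusted p = 3e-04), a 1.82-fold fall. PTGER4 (282331), a receptor for prostaglandin E2 that raises cyclic AMP, rose from 5.28 ± 0.20 to 6.43 ± 0.50 (SD), a difference of 1.15 ± 0.24 (SE, adjusted p = 0.00387). Of 24 measured genes of prostaglandin receptors and PGF2α signalling, 4 rose (16.7%, beside 3.29% of all genes) and 1, PTGFR, fell (beside 1.99% of all genes), with a median of 0.12. The count of rises fell to 1 without 4 h replicate 1 or 0 h replicate 5, and to 2 without 4 h replicates 2, 3 or 5 or 0 h replicates 1 or 4.

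PTGS2 (282023), the inducible cyclooxygenase that starts prostaglandin synthesis, was the called member among 13 genes of prostaglandin synthesis and breakdown. Its list thus had 7.69% higher, beside 3.29% of all genes. The signals of PTGS2 at 0 h were 4.33, 3.91, 4.36, 3.92 and 4.01. At 4 h they were 6.61, 6.23, 5.04, 4.02 and 5.85. Replicate 4 stayed within the 0 h range, and the other 4 glands lay above it. The difference was 1.45 ± 0.35 (SE, adjusted p = 0.013), with adjusted p = 0.0666 without 4 h replicate 1 and 0.0591 in a fit to the 10 arrays alone. The other 2 probe sets of PTGS2 were dimmer and not called (0.49, adjusted p = 0.131, and -0.06, adjusted p = 0.924).

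The list of MAP kinase phosphatases and feedback inhibitors also holds the kinase MAP2K3. Of its 14 measured members 6 rose (42.9%, beside 3.29% of all genes) and none fell, with a median of 0.48. This count was 3 without 4 h replicate 1 and 3 without 4 h replicate 5. RASA2 (533491), a GTPase-activating protein that turns Ras off, rose by 0.94 ± 0.18 (SE, adjusted p = 0.00195). DUSP7 (785016), a phosphatase that inactivates ERK, rose by 0.54 ± 0.11 (SE, adjusted p = 0.00344), and MAP2K3 (516039), a kinase that activates p38, by 0.50 ± 0.10 (SE, adjusted p = 0.00265).

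Several transcription factors of the immediate-early class were higher at 4 h, though FOS was not. NR4A1 (528390), an orphan nuclear receptor induced by calcium and protein kinase C, was at 7.16, 6.78, 6.56, 6.88 and 7.52 at 0 h and at 9.40, 8.78, 9.13, 8.46 and 9.20 at 4 h. The groups did not overlap, and the difference was 2.01 ± 0.49 (SE, adjusted p = 0.0136), or 4.04-fold. SRF (533039), which drives the transcription of FOS and of actin genes, had the smallest SE of the factors named. Its signals were 6.64, 6.43, 6.63, 6.89 and 6.65 at 0 h and 7.42, 7.76, 7.74, 7.76 and 7.67 at 4 h, a rise of 1.02 ± 0.09 (SE, adjusted p = 6e-09). ATF3 (515266), a stress-induced factor, went from 6.27, 6.40, 6.60, 5.86 and 6.59 to 8.60, 8.09, 7.99, 6.66 and 7.72, with replicate 4 the lowest of the 4 h glands. Its rise was 1.47 ± 0.30 (SE, adjusted p = 0.00332).

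CREM (540605), whose short form ICER represses cyclic AMP-driven transcription, rose by 2.01 ± 0.27 (SE, adjusted p = 1.43e-05) on its brightest probe set. That probe set had 8.19, 8.02, 7.87, 7.74 and 7.49 at 0 h and 9.63 to 10.10 in the 4 h glands, with no overlap. The other 5 probe sets of CREM were not called, their differences ran from -0.38 to 0.79, and the mean of all had a difference of 0.39 (adjusted p = 0.159). NFIL3 (506097), a repressor of the basic leucine zipper family, rose by 1.23, FOSB (540819), an AP-1 partner, by 1.22, MAFF (617914), a small Maf protein, by 1.00 and JUND (517192), another AP-1 subunit, by 0.63. A second, dimmer probe set of FOSB was not called (0.05, adjusted p = 0.955), and with the mean of both the difference was 0.63. FOS (280795) had 10.18, 9.86, 9.86, 10.19 and 8.62 at 0 h and 10.54, 9.95, 9.61, 9.29 and 10.26 at 4 h. Its difference of 0.19 ± 0.41 (SE) was not called (adjusted p = 0.932) and was -0.091 without 0 h replicate 5. Of 27 immediate-early factors 9 rose (33.3%, beside 3.29% of all genes) and none fell, with a median of 0.46.

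NF-kB is held in the cytoplasm by inhibitors of the IkB family, and many of its targets are its own subunits and inhibitors. Of 28 measured subunits, inhibitors and targets of NF-kB, 15 rose (53.6%, beside 3.29% of all genes) and none fell, with a median of 0.56. In 11 of them every 4 h gland lay above every 0 h gland, as in 4.1% of all genes. NFKBIA (282291), the inhibitor IkBα, had 7.98, 8.20, 8.08, 8.28 and 8.22 at 0 h. At 4 h it had 11.19, 11.41, 10.02, 8.62 and 10.68. Replicate 4 lay just above the controls, and the other 4 glands lay far higher. The rise was 2.24 ± 0.37 (SE, adjusted p = 0.000342), or 4.71-fold.

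BIRC3 (514386), an inhibitor of apoptosis that ubiquitinates RIPK1, rose by 1.92 ± 0.29 (SE, adjusted p = 0.000112), and in 4 h replicate 4 its 6.80 lay within the 0 h range of 6.52 to 6.82. BCL2A1 (282151), an antiapoptotic BCL2 relative, rose by 1.72 ± 0.32 (SE, adjusted p = 0.00109). The subunits NFKB2 (526392) and NFKB1 (616115) rose by 1.16 and 1.05. The inhibitors and dampers NFKBIE (506727) and TNIP1 (526103) rose by 0.83 and 0.90, and CFLAR (497199), which blocks caspase 8, by 1.10. Among receptors and adaptors, TLR2 (281534), which senses bacterial lipoproteins, rose by 1.11, TRAF1 (540944), an adaptor of TNF receptors, by 0.89, and CD40 (286849), a costimulatory receptor, by 0.69. On its brightest probe set CD40 was even at 4 h. Its 5 glands lay between 9.66 and 9.76, replicate 4 among them at 9.69. The size of its rise depended on the probe set, since a second one rose by 1.70 (adjusted p = 0.000112). The mean level of the whole NF-kB list was 7.88 to 8.01 in the 0 h glands, 8.11 in 4 h replicate 4 and up to 8.99 in the other 4 h glands. Without 4 h replicate 4, 19 of the 28 rose.

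Chemokines draw leukocytes out of the blood, CCL types mostly monocytes and CXCL types with the ELR motif mostly neutrophils. Of 26 measured chemokines 10 rose (38.5%, beside 3.29% of all genes) and none fell, with a median of 0.70. CCL4 (414347), which attracts monocytes and T cells, had the largest rise of all genes. It was at 5.35, 5.10, 6.24, 6.12 and 5.20 at 0 h and at 11.31, 10.86, 10.64, 8.08 and 10.34 at 4 h. The groups did not overlap, and replicate 4 again had the lowest 4 h signal. The difference was 4.64 ± 0.41 (SE, adjusted p = 8.11e-09), or 25.0-fold. CCL8 (281044), a ligand of monocyte receptors, rose by 3.10 ± 0.39 (SE, adjusted p = 7.52e-06), CCL2 (281043), the monocyte chemoattractant protein, by 2.23 ± 0.32 (SE, adjusted p = 4.78e-05) and CCL3 (282170), a close relative of CCL4, by 1.62 ± 0.25 (SE, adjusted p = 0.000131). A second probe set of CCL3 rose by 3.86 (adjusted p = 8.52e-08), and another, dim one was not called (-0.01, adjusted p = 0.988).

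The neutrophil chemokines varied more between glands. CXCL8 (280828), interleukin 8, had 5.45, 4.63, 5.68, 5.02 and 4.81 at 0 h and 9.44, 10.03, 8.02, 5.77 and 9.41 at 4 h. Replicate 4 exceeded the highest control by little, and the rise was 3.42 ± 0.58 (SE, adjusted p = 0.000499). CXCL2 (281734), a ligand of CXCR2, rose by 3.92 ± 0.83 (SE, adjusted p = 0.00434), from signals dimmer than most, with 14.6% of probe sets dimmer at 0 h, and its fold is therefore uncertain. Its 4 h signals were 8.40, 8.87, 6.60, 4.26 and 7.95, and that of replicate 4 lay under the highest control. GRO1 (281212), a ligand of the same family, rose by 2.04 ± 0.45 (SE, adjusted p = 0.00688, and 0.0531 in a fit to the 10 arrays alone). CXCR1 (281863), a neutrophil receptor for interleukin 8, rose by 1.88 ± 0.39 (SE, adjusted p = 0.00344), with 6.91, 6.47, 6.20, 4.24 and 6.47 at 4 h and 3.89 to 4.51 at 0 h. CXCR4 (281736), the receptor for CXCL12, rose by 1.10 ± 0.26 (SE, adjusted p = 0.0111).

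Of 31 interleukins, colony stimulating factors and TNF family members 7 rose (22.6%, beside 3.29% of all genes). Of 22 cytokine receptors and SOCS proteins 5 rose (22.7%), with none falling in either list. The medians were 0.16 and 0.28. IL33 (507054), an alarmin held in nuclei, had the smallest p of all named genes. Its signals were 6.34, 5.58, 5.22, 5.64 and 5.76 at 0 h and 9.83, 8.99, 10.03, 9.54 and 9.01 at 4 h, and replicate 4 stood in the middle of its group. The rise was 3.77 ± 0.23 (SE, adjusted p = 1.41e-11), or 13.6-fold. IL1B (281251), the secreted inflammatory cytokine, had 4.69, 3.97, 4.81, 4.37 and 4.81 at 0 h and 9.73, 8.82, 8.22, 5.72 and 8.62 at 4 h. Here replicate 4 was the lowest of the 4 h glands, and the rise was 3.69 ± 0.55 (SE, adjusted p = 8.3e-05). IL1RN (281860), the antagonist of the interleukin 1 receptor, rose by 2.85 ± 0.41 (SE, adjusted p = 4.3e-05), and IL1A (281250), the other ligand, by 2.43 ± 0.43 (SE, adjusted p = 0.000761).

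IL1R1 (515640), the signalling receptor, rose by 0.72 ± 0.17 (SE, adjusted p = 0.0135). Other measured members of the interleukin 1 family did not pass, among them IL18 (0.22, adjusted p = 0.731), the decoy receptor IL1R2 (0.29, adjusted p = 0.107) and the receptor chain IL1RAP (0.63, adjusted p = 0.289), which were chosen after their values were seen. IL6 (280826), an acute-phase cytokine, had 4.39 to 4.66 at 0 h and 6.87, 8.44, 5.51, 4.83 and 7.70 at 4 h, a rise of 2.14 ± 0.51 (SE, adjusted p = 0.0112). Among cytokine receptors, IL4R (404154), the interleukin 4 receptor, rose by 1.68, IL10RA (513478), a chain of the interleukin 10 receptor, by 1.14 and OSMR (514720), the oncostatin M receptor, by 0.61. A second probe set of IL4R was not called (0.43, adjusted p = 0.295).

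The arrays thus held a gland, 4 h replicate 4, in which many of these rises were small while others were as large as in the other glands. This pattern was seen in the values and is given as a description without a test. Over the 115 called genes that changed at least 2-fold, the difference of replicate 4 from the 0 h mean was a median of 53.4% of the mean difference of the other 4 glands. The same measure was 139%, 97.4%, 112% and 99.9% for replicates 1, 2, 3 and 5. In replicate 4, 50 of the 115 genes were under 50%, 33 between 50 and 80% and 32 at 80% or more.

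The genes named from this split were chosen after their values were seen. Genes with low shares included PTGS2 (-4.7%), CXCR1 (2.74%), GRO1 (5.57%), BIRC3 (5.58%), IL6 (11.4%), IL1A (15.9%), CXCL8 (16%), NFKBIA (17.7%), ATF3 (18.1%), NFKB1 (18.5%), CXCL2 (20.6%) and IL1B (27.5%). CCL4 stood at 47.7% and CCL2 at 50%. Genes with shares of 80% or more included AREG (94.8%), CREM (95.6%), NDRG1 (98.8%), FGF2 (99.0%), IL33 (102%), TIMP3 (107%), SRF (111%), LPL (112%), GAL (119%) and STC1 (132%), and among falls PTHLH (90.9%) and POLR1E (103%). The highest shares were those of DAPL1 (202%), SLCO2B1 (197%), MUSTN1 (174%), AQP11 (155%) and CNN1 (140%).

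In array measures, replicate 4 lay within the 4 h range for its median (6.07) and its actin 3′ minus 5′ difference (2.11). Its GAPDH 3′ minus 5′ difference of 0.37 was the lowest of the 10 arrays, the others at 4 h reaching 0.51 and those at 0 h lying between 0.40 and 0.45. The part of RNA state in this pattern was not tested. Without this array 1061 probe sets were called, 720 higher and 341 lower.

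**Figure D2:**
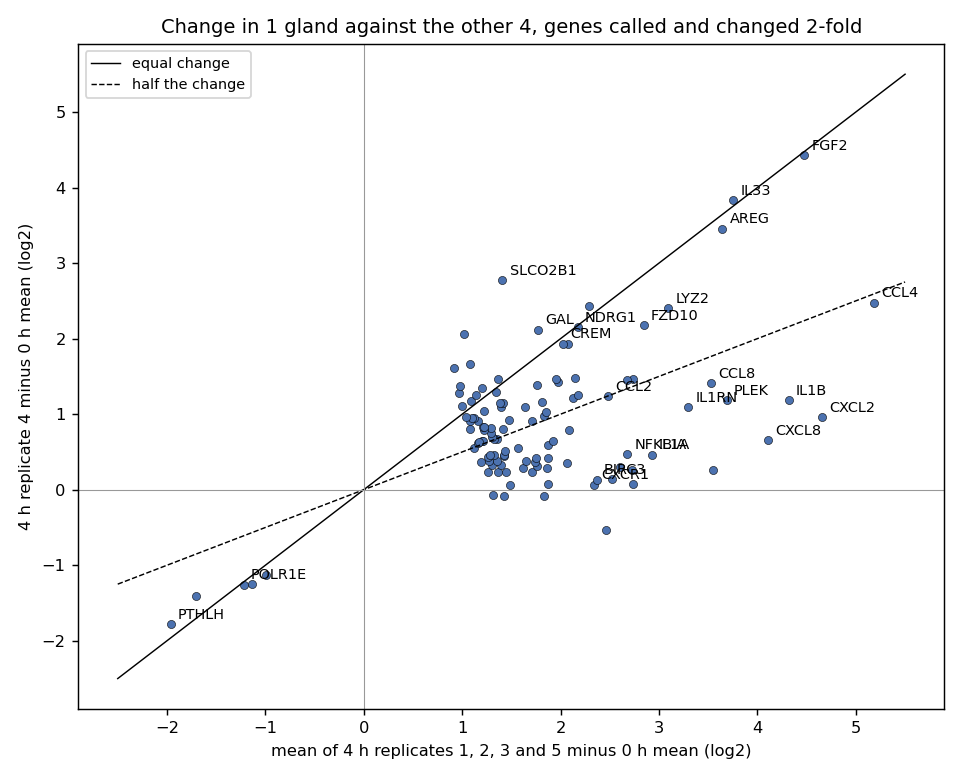
Each of the 115 points is a gene called and changed at least 2-fold at 4 h, with the mean log2 change of 4 h replicates 1, 2, 3 and 5 on the x axis and that of 4 h replicate 4 on the y axis, both from the 0 h mean. FGF2, IL33, AREG and PTHLH lie near the line of equal change, while CXCL8, IL1B, NFKBIA and CXCR1 lie below the dashed line of 50%.

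Growth factor lists had few called members. Of 23 fibroblast, hepatocyte, nerve and platelet growth factors and related hormones 3 rose (13%, beside 3.29% of all genes), namely FGF2, GAL and STC1. Another, PTHLH, fell (beside 1.99% of all genes), and the median of the list was 0.05. Of 8 EGF receptor ligands and receptors 1, AREG, rose (12.5%, beside 3.29% of all genes) and 1 fell (beside 1.99% of all genes). The latter was LRIG3, which dampens EGF receptor signals and fell by 0.88 (adjusted p = 0.0363). The call of LRIG3 was lost with the replicate block and without 4 h replicates 1 to 5 or 0 h replicates 1, 4 or 5, each left out singly. FGF2 (281161), an angiogenic growth factor that acts on endothelial cells, had 5.00, 4.48, 3.90, 3.71 and 3.78 at 0 h and 8.84, 8.90, 8.35, 8.61 and 8.51 at 4 h. The spread of the 4 h glands (SD 0.23) was smaller than that of the 0 h glands (SD 0.55). The rise was 4.47 ± 0.36 (SE, adjusted p = 1.72e-09), and only 26.8% of probe sets were dimmer at 0 h, so the 22.1-fold rise is imprecise. AREG (538751), a ligand of the EGF receptor, had 7.88, 5.99, 8.07, 6.87 and 6.40 at 0 h and 10.84, 10.53, 10.63, 10.49 and 10.74 at 4 h. The 4 h glands, which came from other animals, varied less than the 0 h glands (SD 0.14 and 0.91). The rise was 3.61 ± 0.31 (SE, adjusted p = 6e-09).

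PTHLH (286767), the parathyroid hormone-related peptide, had the largest fall. It was at 11.06, 10.37, 10.38, 11.05 and 11.09 at 0 h and at 8.47, 8.93, 8.58, 9.01 and 9.35 at 4 h, a difference of -1.92 ± 0.24 (SE, adjusted p = 6.24e-06), or 3.8-fold lower. STC1 (338078), stanniocalcin, another hormone of calcium and phosphate balance, rose by 1.03 ± 0.23 (SE, adjusted p = 0.00688). GAL (280799), the neuropeptide galanin, had 5.48, 4.71, 4.82, 5.22 and 4.99 at 0 h and 7.01, 6.31, 7.88, 7.16 and 6.08 at 4 h, with no overlap and a rise of 1.84 ± 0.34 (SE, adjusted p = 0.00133).

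In the activin and TGF-β family 6 of 32 measured members rose (18.8%, beside 3.29% of all genes) and none fell, with a median of 0.05. INHBA (281867), the subunit of activin A, had 6.66, 6.64, 6.86, 7.19 and 7.27 at 0 h and 8.77, 7.79, 10.04, 7.96 and 8.51 at 4 h, with replicate 3 the highest. It rose by 1.69 ± 0.34 (SE, adjusted p = 0.003). TGFB2 (534069), a TGF-β ligand, rose by 0.94, BAMBI (530147), a decoy receptor that blocks TGF-β signals, by 1.05 and TGIF1 (510050), a corepressor of SMAD proteins, by 0.76. IGFBP3 (282261), the main carrier of insulin-like growth factors, rose by 0.92 ± 0.21 (SE, adjusted p = 0.00859).

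FZD10 (515323), a Wnt receptor, rose by 2.71 ± 0.22 (SE, adjusted p = 1.71e-09), from 3.38 to 3.98 at 0 h to 5.95 to 6.97 at 4 h. At 0 h it was dim (21.3% of probe sets dimmer). PLEK (518658), pleckstrin, a protein kinase C substrate of leukocytes and platelets, rose by 3.19 ± 0.41 (SE, adjusted p = 8.38e-06), from 3.34 to 4.14 to 8.45, 7.39, 6.87, 4.86 and 6.76. OLR1 (281368), a receptor for oxidized low-density lipoprotein, rose by 2.48, and DAPP1 (533156), a signalling adaptor, by 2.43. LYZ2 (280849), a lysozyme, rose by 2.95 ± 0.62 (SE, adjusted p = 0.00441) on its brightest probe set, while its other 3, all dim, had differences of -0.03 to 0.09 and were not called.

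**Figure D3:**
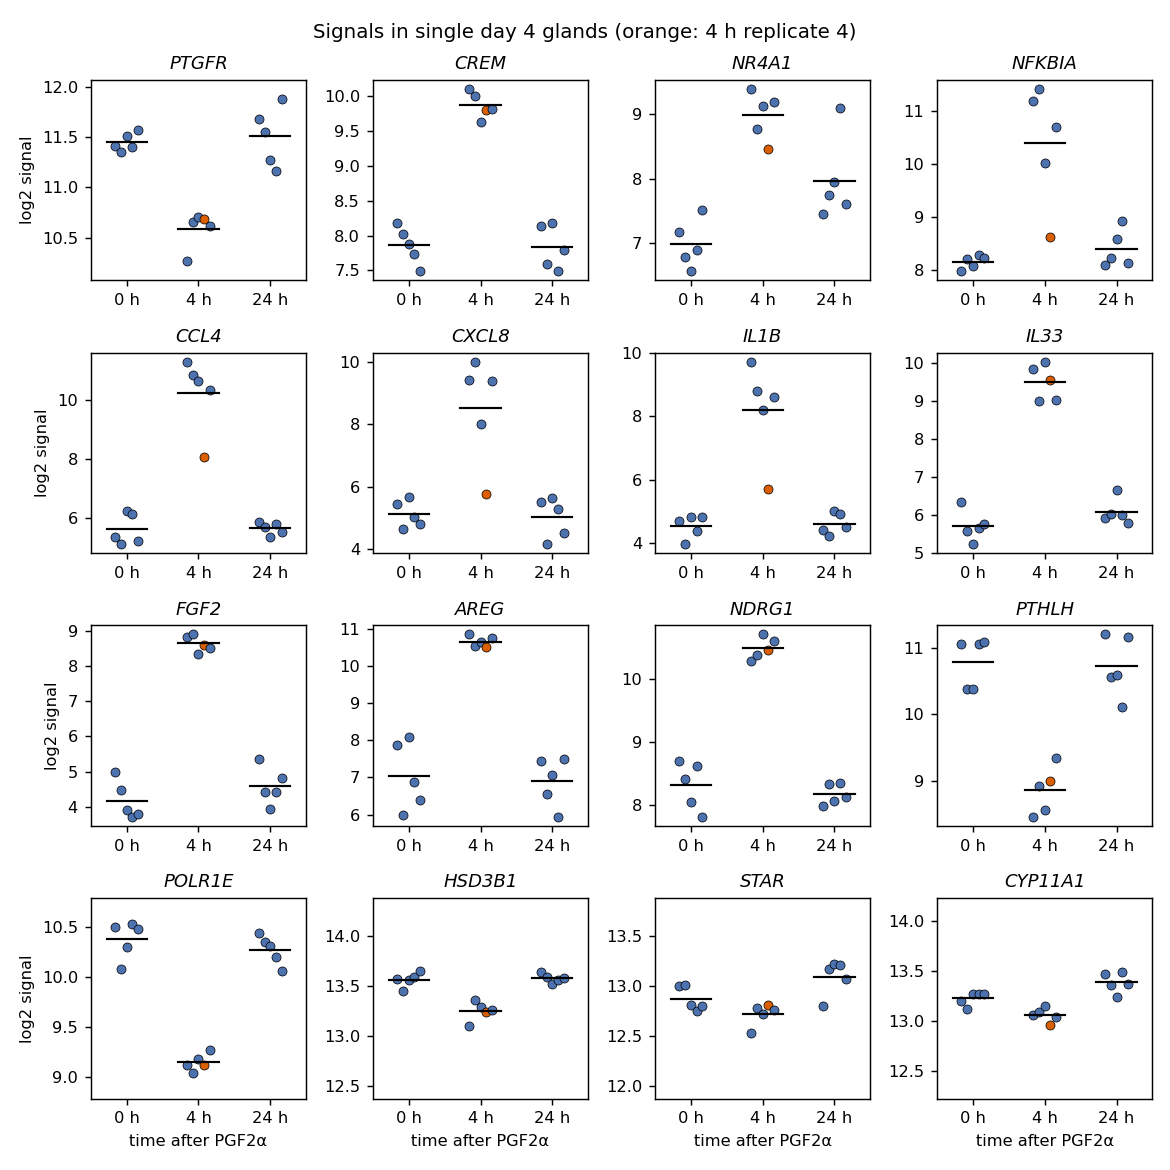
Log2 signals of 16 genes in single day 4 glands at 0, 4 and 24 h, 5 glands a group, with points offset sideways by replicate number, lines at group means, 4 h replicate 4 in orange, and a y axis of its own for each gene. The orange point lies with its group for FGF2, IL33, AREG and NDRG1 and well below it for NFKBIA, CCL4, CXCL8 and IL1B, and most genes were near their 0 h level at 24 h.

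Of 28 angiogenic ligands and endothelial receptors 2 rose (7.14%) and none fell, and of 24 vasoactive genes 1 rose (4.17%) and none fell, beside 3.29% of all genes higher. The count of 2 was 1 without 0 h replicates 1, 3, 4 or 5 or 4 h replicates 1, 3, 4 or 5, and the vasoactive count was 2 without 0 h replicate 1. EDN1 (281137), the vasoconstrictor endothelin 1, had 5.86, 6.02, 6.01, 5.37 and 5.35 at 0 h and 7.34, 8.47, 6.71, 6.27 and 6.63 at 4 h. Its groups did not overlap, and it rose by 1.36 ± 0.30 (SE, adjusted p = 0.00719). ANGPT2 (282141), which loosens vessel walls by opposing angiopoietin 1, rose by 1.02 ± 0.20 (SE, adjusted p = 0.00182). VEGFA (281572), the endothelial growth factor, had 10.65 to 11.27 at 0 h and 10.41 to 10.75 at 4 h, and its difference of -0.33 ± 0.18 (SE) did not pass (adjusted p = 0.438).

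Adhesion molecules that hold leukocytes at the vessel wall rose in 5 of 19 measured cases (26.3%, beside 3.29% of all genes), with a median of 0.31. ICAM1 (281839), a ligand of leukocyte integrins, had 7.31 to 7.74 at 0 h and 9.41, 9.22, 8.71, 7.85 and 9.17 at 4 h, a rise of 1.40 ± 0.24 (SE, adjusted p = 0.000598). SELP (281486), P-selectin, rose by 1.58 ± 0.38 (SE, adjusted p = 0.013), and PECAM1 (282303), of endothelial junctions, by 0.64 ± 0.15 (SE, adjusted p = 0.0133). The adjusted p of SELP was 0.061 without 4 h replicate 1 and that of PECAM1 0.0599 without 4 h replicate 3. The count of 5 was 2 without 4 h replicates 1 or 3, 3 without 4 h replicates 2 or 5 or 0 h replicates 1, 3 or 5, and 3 in the fit to the 10 arrays with the replicate block. ERG (535231), an endothelial transcription factor, rose by 0.59 ± 0.13 (SE, adjusted p = 0.00743), and EMCN (616367), a sialomucin that hinders leukocyte adhesion, fell by 0.46 (SE 0.10, adjusted p = 0.00744).

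Of 36 hypoxia and glycolysis genes 7 rose (19.4%, beside 3.29% of all genes) and none fell, with a median of 0.10. NDRG1 (504499), a hypoxia-induced gene, had 8.70, 8.41, 8.05, 8.62 and 7.81 at 0 h and 10.28, 10.38, 10.71, 10.47 and 10.61 at 4 h. Its rise was 2.17 ± 0.23 (SE, adjusted p = 3.73e-07), or 4.5-fold. PFKFB3 (407183), which raises the activator of phosphofructokinase, rose by 1.47, EPAS1 (282711), the hypoxia-inducible factor 2α, by 0.71 and SLC2A1 (282356), the glucose transporter GLUT1, by 0.66. The other 2 probe sets of PFKFB3 were dim and not called (-0.09 and -0.02).

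Lipid genes were represented by 2 rises among 30 measured (6.67%, beside 3.29% of all genes), with a median of 0.02. LPL (280843), lipoprotein lipase, had 8.23, 8.94, 8.47, 7.83 and 8.01 at 0 h and 9.37, 10.13, 9.29, 9.65 and 9.21 at 4 h, and it rose by 1.23 ± 0.25 (SE, adjusted p = 0.00266). PLIN2 (280981), a coat protein of lipid droplets, was higher by 0.71 ± 0.11 (SE, adjusted p = 0.00022) from an already high level of 12.80. Among solute carriers 6 of 47 rose (12.8%, beside 3.29% of all genes). SLC20A2 (518905), a phosphate transporter, rose by 1.36 ± 0.13 (SE, adjusted p = 2.09e-08), SLCO2B1 (317704), an organic anion transporter, by 1.68, SLC39A14 (515437), a zinc and iron importer, by 0.90 and SLC3A2 (507107), the heavy chain of amino acid exchangers, by 0.58. SLCO2B1 differed from most rises in that replicates 4 and 3 were its highest 4 h glands (6.27, 6.58, 7.72, 8.31 and 7.23). Its second probe set was not called (0.26, adjusted p = 0.328).

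TIMP3 (282094), an inhibitor of matrix metalloproteinases, had 7.16, 6.92, 6.74, 7.11 and 7.11 at 0 h and 8.39, 8.25, 8.70, 8.47 and 8.17 at 4 h, a rise of 1.39 ± 0.14 (SE, adjusted p = 2.27e-07). PLAUR (281983), the urokinase receptor, rose by 1.18, CD44 (281057), the hyaluronan receptor, by 1.34, MT2A (404070), a metal-binding metallothionein, by 1.18, CDKN1A (513497), the cell cycle inhibitor p21, by 1.13 and ARHGEF2 (505940) by 0.65. Metalloproteinases, TIMPs and the plasmin system had 3 of 30 members higher (10%, beside 3.29% of all genes). The count was 5 without 4 h replicate 4 or in the fit to the 10 arrays with the replicate block.

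Of the luteal cell and progesterone synthesis genes named next, CYP21A2 passed the test over all arrays, as PTGFR had above. STAR (281507), which carries cholesterol into mitochondria, was at 13.00, 13.00, 12.81, 12.75 and 12.80 at 0 h and 12.53, 12.78, 12.72, 12.80 and 12.76 at 4 h. Its difference of -0.15 ± 0.21 (SE) did not pass (adjusted p = 0.879). CYP11A1 (338048), which cleaves the side chain of cholesterol, differed by -0.16 ± 0.07 (SE, adjusted p = 0.237). HSD3B1 (281824), which makes progesterone from pregnenolone, had 13.56, 13.45, 13.56, 13.59 and 13.65 at 0 h and 13.10, 13.36, 13.29, 13.24 and 13.26 at 4 h. Its groups did not overlap. The difference of -0.31 did not pass in the fit to all 30 arrays (SE 0.19, adjusted p = 0.508), and it passed in the fits to the 10 arrays compared (adjusted p = 0.0311) and to the 15 day 4 arrays (adjusted p = 0.0114).

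LHCGR (281900), the receptor for luteinizing hormone, differed by -0.40 ± 0.29 (SE, adjusted p = 0.617), NR5A1 (281948), which drives steroidogenic genes, by -0.21 ± 0.18 (SE, adjusted p = 0.729) and OXT (280888), luteal oxytocin, by -0.04 ± 0.07 (SE, adjusted p = 0.905). Of 34 measured steroidogenesis genes none rose and 1 fell, beside 3.29% of all genes higher and 1.99% lower, with a median of -0.05. That gene was CYP21A2 (282425), the 21-hydroxylase, which converts progesterone to deoxycorticosterone. It was at 5.65, 6.78, 7.37, 7.73 and 7.17 at 0 h and at 4.53, 4.70, 5.93, 5.53 and 5.80 at 4 h, with 0 h replicate 1 inside the 4 h range. It fell by 1.64 (SE 0.37, adjusted p = 0.00687). Of 31 cholesterol synthesis, uptake and efflux genes 1 rose (3.23%, beside 3.29% of all genes), with a median of -0.0038. That gene was NPC1, which moves cholesterol out of lysosomes (0.47, adjusted p = 0.0419). The count was 0 without any of 0 h replicates 1 to 5 or 4 h replicates 1, 2, 3 or 5, and 2 without 4 h replicate 4.

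POLR1E (511587), a subunit of RNA polymerase I, which transcribes ribosomal RNA, was at 10.50, 10.08, 10.29, 10.53 and 10.47 at 0 h and 9.12, 9.04, 9.18, 9.12 and 9.27 at 4 h. It fell by 1.23 (SE 0.10, adjusted p = 3.11e-09), and its 3 other probe sets fell too, by 1.28, 1.24 and 0.44. It was 1 of 68 measured genes of RNA polymerases and ribosome biogenesis, and no other member passed the test. Of all genes 3.29% were called higher and 1.99% lower. PRICKLE1 (785152), of planar cell polarity, fell by 0.97, PIM2 (508424), a survival kinase, by 0.95, CGN (533725), cingulin of tight junctions, by 0.92 and RBM47 (540831), an RNA-binding protein, by 0.91. MYH7 (282714), a slow myosin heavy chain, fell by 0.90 on its brightest probe set, and with the mean of its probe sets the difference was -0.28 (adjusted p = 0.0882). ZMYM3 (522721), of a histone deacetylase complex, fell by 0.85 and SMIM3 (767924), a small membrane protein, by 0.83. These genes, POLR1E included, were chosen among falls in which no 4 h gland reached the lowest 0 h gland.

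The gene lists named next had few or no called members. None of 61 cytosolic ribosomal proteins, 67 respiratory chain subunits, 36 proteasome and ubiquitin genes, 35 chaperones and 29 interferon-stimulated genes passed the limma test. An unadjusted p under 0.05 was reached by 1, 7, 3, 4 and 2 of them, and by 3519 of all 24016 probe sets. Of all genes 5.28% were called in either direction. The respiratory chain nevertheless leaned one way, with 66 of 67 differences negative and a median of -0.10. Cell cycle and mitosis genes had 1 of 55 higher (1.82%, beside 3.29% of all genes) and 2 lower (beside 1.99% of all genes). Of their differences 48 were negative, with a median of -0.17. The count lower was 0 without 4 h replicate 1, 1 without 4 h replicate 2 or 0 h replicate 5, and 7 in the fit to the 10 arrays with the replicate block. Genes of a list share arrays and tissue, so these shared signs are given without a test. Collagens and matrix glycoproteins had 1 of 36 higher (2.78%, beside 3.29% of all genes). Some lists not counted above had larger shares higher. These were chemokine receptors (3 of 10, 30%) and the insulin-like growth factor system (2 of 14, 14.3%). Integrins, cadherins, claudins and connexins had 4 of 32 (12.5%), actin cytoskeleton and smooth muscle 4 of 33 (12.1%) and apoptosis regulators 3 of 26 (11.5%). With 1 array left out these counts went down to 2, 1, 1, 1 and 1.

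Many genes had more than 1 probe set. Of 38 called genes named that did, 11 had all further probe sets called with a log2 difference within 1.5 times of the one given, 22 had at least 1 that was not called, and 6 had at least 1 that was called and over 1.5 times apart. None was called with the other sign. Besides CCL3, CD40 and the dimmest probe set of POLR1E, the last were EPAS1 (1.25), GRO1 (3.53) and PLEK (1.26). Further probe sets not called and not yet given included those of PTGFR (-0.81, adjusted p = 0.0513), ZMYM3 (-0.58, adjusted p = 0.0675), RBM47 (-0.75, adjusted p = 0.078), PECAM1 (0.44, adjusted p = 0.119) and TNIP1 (0.32, adjusted p = 0.135). Others of RBM47, both dim, differed by only -0.06 and 0.10. Those not called of PRICKLE1 differed by -0.38 and -0.20, of NFKBIE by 0.42 and 0.40 and of OSMR by 0.34 and 0.40. The dim ones of ERG, RASA2, JUND and ARHGEF2 differed by 0.12, 0.09, 0.04 and 0.05, and that of IL33 by -0.11.

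**Figure D4:**
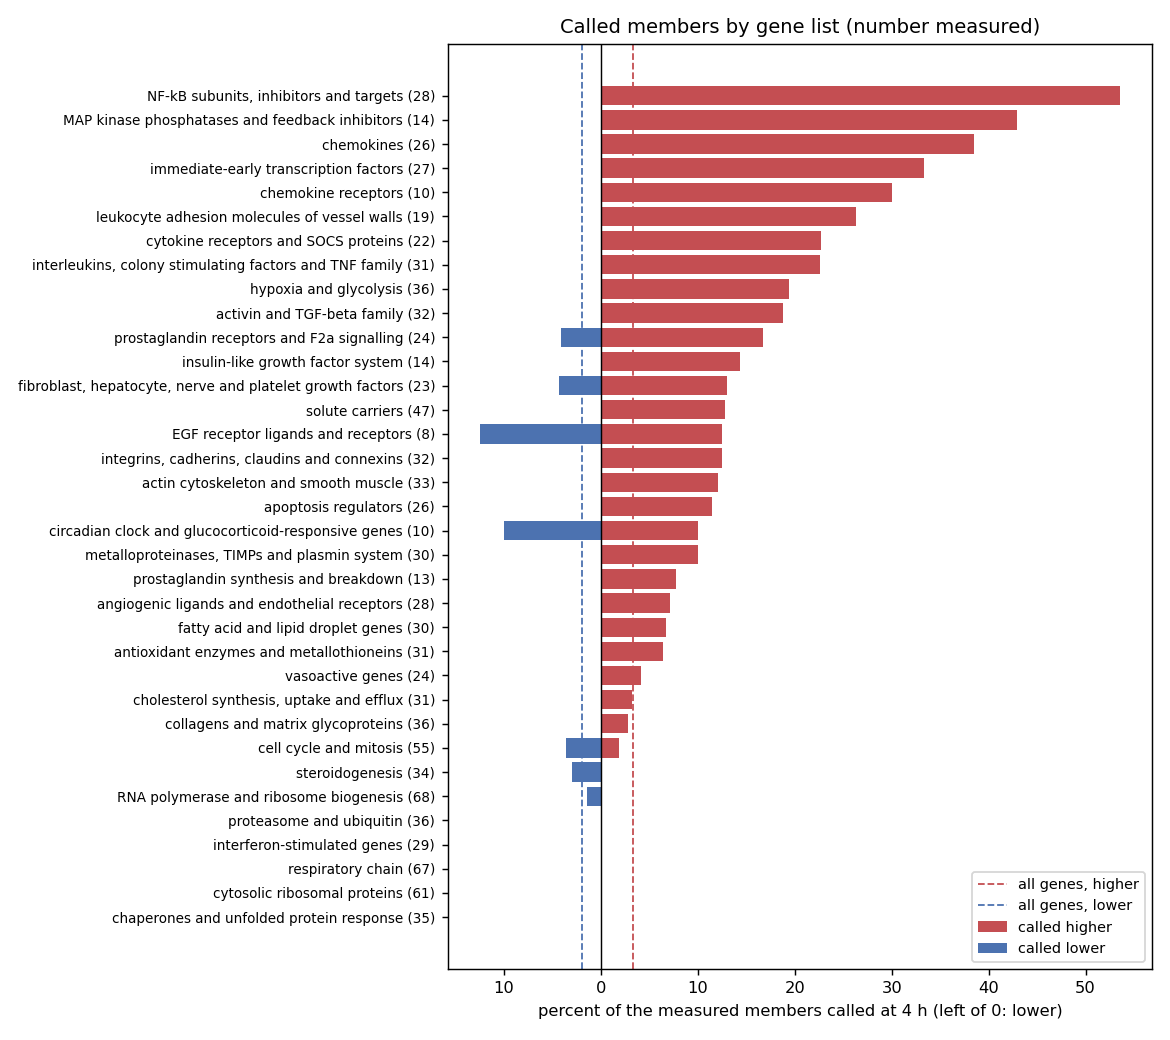
Bars give the percent of measured members of each gene list called higher (right, red) or lower (left, blue) at 4 h, and dashed lines the same percent over all 9155 genes, 3.29 higher and 1.99 lower. NF-kB genes, MAP kinase feedback genes, chemokines and immediate-early factors have the longest bars, and the 5 lists at the foot have none.

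Marker genes of the cells a whole gland holds were read for the same arrays. Of the 10 luteal markers measured, STAR, CYP11A1, HSD3B1 and OXT had signals above 12 in every day 4 gland at 0 and 4 h, so the defining markers of the labelled tissue were present. The mean level of the 10 was 11.71 to 11.87 at 0 h and 11.46 to 11.71 at 4 h, the groups meeting at 11.71. Of their differences 9 were negative, and that of PTGFR was called, 1 of 10 beside 1.99% of all genes lower. Neutrophil and eosinophil markers had a mean of 4.42 to 4.60 at 0 h and 4.73 to 5.05 at 4 h, without overlap. The median of their 16 differences was only 0.03, with 9 positive and 7 negative. Of the 16, 2 were called higher (12.5%, beside 3.29% of all genes). They were CXCR1 and S100A12 (282467), a calcium-binding protein of neutrophil granules. S100A12 rose by 1.94 ± 0.46 (SE, adjusted p = 0.0107, and 0.0561 without 4 h replicate 1). S100A8 and S100A9, subunits of calprotectin, differed by 1.25 (adjusted p = 0.204) and 0.57 (adjusted p = 0.404). Replicate 4 had the lowest neutrophil mean of the 4 h glands, 4.73.

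All 15 macrophage markers had positive differences, with a median of 0.40, and 1 was called (6.67%, beside 3.29% of all genes higher). Their means were 6.31 to 6.54 at 0 h and 6.49 to 7.63 at 4 h, which overlap. The called marker was CD14 (281048), the coreceptor for lipopolysaccharide, at 7.84, 7.91, 8.37, 7.73 and 7.63 and then 10.09, 8.84, 8.94, 8.53 and 8.40, a rise of 1.06 ± 0.26 (SE, adjusted p = 0.016, and 0.0764 without 4 h replicate 1). CD68 differed by 0.37 (adjusted p = 0.668) and CSF1R by 0.41 (adjusted p = 0.541). T and NK cell markers had a mean of 4.07 to 4.45 at 0 h and 4.16 to 4.61 at 4 h. None of 20 was higher and 1 was lower, beside 3.29% of all genes higher and 1.99% lower. The lower one was LCK (-0.59, adjusted p = 0.0282). The call of LCK was lost without 0 h replicates 1, 3 or 5 or 4 h replicates 1, 4 or 5, and with the mean of its probe sets. Its further probe sets were not called (-0.51, adjusted p = 0.0969, and 0.15, adjusted p = 0.694). CD3E differed by 0.16 (adjusted p = 0.876). None of 6 B cell markers was called in limma (none at an unadjusted p under 0.05), and their means were 4.25 to 4.74 and 4.36 to 5.13.

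Endothelial markers had a mean of 7.24 to 7.67 at 0 h and 7.59 to 7.94 at 4 h. Of 16 measured, 4 were higher (25%, beside 3.29% of all genes) and 1 lower (beside 1.99% of all genes). The count higher was 2 without 4 h replicate 3, and 2 in the fit to the 10 arrays with the replicate block. CDH5, the cadherin of endothelial junctions, differed by 0.43 (adjusted p = 0.00959) and TIE1, an endothelial receptor, by 0.39 (adjusted p = 0.229). Fibroblast, pericyte and smooth muscle markers had means of 9.60 to 9.86 and 9.91 to 10.28, without overlap, and all 16 differences were positive. Of the 16, 1 was called higher (6.25%, beside 3.29% of all genes). This was CNN1, a smooth muscle calponin (1.06, adjusted p = 0.026), whose call was lost without 0 h replicates 2, 3 or 4 or 4 h replicates 3, 4 or 5. DCN, decorin of fibroblasts, differed by 0.26 (adjusted p = 0.349), and COL1A1 by 0.09 (adjusted p = 0.938). None of 8 red cell and platelet markers and none of 10 epithelial and oocyte markers was called in limma, nor had any an unadjusted p under 0.05. The part of these cell markers in the changes of inflammatory, vessel and luteal genes was not tested.

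At 24 h, 5 further day 4 glands were measured. They share the 0 h controls, so the later values are set beside the earlier ones without a measure of likeness. Of 24016 probe sets 1240 (5.16%) differed between 24 and 0 h, and 3580 (14.9%) between 24 and 4 h. The first count rested on single arrays. It was 2071 without 24 h replicate 1, 497 without 24 h replicate 2, 357 without 24 h replicate 4, 720 without 0 h replicate 3 and 734 without 0 h replicate 4. Of the 80 named genes that had risen at 4 h, 72 were lower at 24 h than at 4 h, and 74 were not called between 24 and 0 h. These genes were chosen by their 4 h rise, and the same 4 h arrays enter the later comparison, which favours a fall. The share of all genes lower at 24 h than at 4 h is not given here. CCL4 was at 5.63 ± 0.21 (SD, n = 5) at 24 h, a difference of 0.03 from 0 h (adjusted p = 0.987) and of -4.61 from 4 h (adjusted p = 7.93e-09). FGF2 was at 4.59 ± 0.54, IL33 at 6.07 ± 0.34, AREG at 6.90 ± 0.65, IL1B at 4.61 ± 0.34 and NDRG1 at 8.17 ± 0.17 (SD, n = 5), and none of these differences from 0 h passed (adjusted p = 0.648, 0.466, 0.896, 0.97 and 0.841).

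Most of the named falls were reversed too, with the same limit that they were chosen by their 4 h values. Of 12 named falls 11 were higher at 24 h than at 4 h. The other, MYH7, was 0.34 above its 4 h level (limma adjusted p = 0.207). Its difference from 0 h was -0.56 (adjusted p = 0.0519). PTGFR was at 11.51 ± 0.29 (SD) at 24 h, PTHLH at 10.72 ± 0.45 and POLR1E at 10.27 ± 0.15, each higher than at 4 h (adjusted p = 4.79e-05, 5e-06 and 1.03e-08). Among named rises, 5 were still above 0 h at 24 h, where 3.03% of all genes were called higher. GAL was at 7.12 ± 0.93 (SD), 2.08 above 0 h (adjusted p = 0.0013), BAMBI at 7.14 ± 0.68, 1.24 above (adjusted p = 0.00219), and LPL at 9.39 ± 0.54, 1.10 above (adjusted p = 0.00998). These 3 calls held when any of the 10 arrays was left out.

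The others were less firm. IL10RA was 0.64 above 0 h (adjusted p = 0.0117, and 0.0583 without 24 h replicate 4). SLC20A2 was 0.42 above (adjusted p = 0.0434, and 0.0643 to 0.158 without any of 24 h replicates 2 to 5 or 0 h replicates 1 to 4). MAP2K3 had fallen below the 0 h level, with a difference of -0.38 (adjusted p = 0.0242, and 0.0501 to 0.125 without 24 h replicates 2 or 4 or 0 h replicates 1, 3 or 4). LHCGR, not called at 4 h, was 1.15 higher at 24 h (adjusted p = 0.0163, 0.0515 without 24 h replicate 2 and 0.0668 without 0 h replicate 1). NR5A1 was 0.74 higher (adjusted p = 0.0153, 0.0618 without 24 h replicate 4 and 0.0613 without 0 h replicate 1).

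The 4 h response was then set beside that of the day 11 gland, measured in 10 other animals. The difference between the days was called for 264 of 24016 probe sets (1.1%), for 1.4% of genes and for 13 of the 100 genes named here. The 100 were chosen largely by their day 4 change, which is a term of this difference. Their larger share cannot be read as a trait of these genes. Without day 4, 4 h replicate 2 the count of probe sets was 157. FZD10 rose by 2.71 on day 4 and by 0.87 on day 11, a difference (day 11 minus day 4) of -1.84 (adjusted p = 0.00124). LPL rose by 1.23 on day 4 and differed by -0.40 on day 11 (difference -1.64, adjusted p = 0.0137), and SLCO2B1 had 1.68 and -0.53 (difference -2.21, adjusted p = 0.00248). SMIM3 had -0.83 and -0.15 (0.68, adjusted p = 0.0146). FGF2 rose by 4.47 and 2.34, a difference of -2.13 (adjusted p = 0.0305). For FGF2 the adjusted p was 0.0544 to 0.0656 without day 4, 0 h replicates 3, 4 or 5, day 4, 4 h replicate 2, or day 11, 0 h replicates 1, 3 or 4. CYP21A2, which fell by 1.64 on day 4, had a difference of 0.48 on day 11 (2.13 between the days, adjusted p = 0.0353). Its adjusted p was 0.0534 to 0.0795 without day 4, 0 h replicates 3, 4 or 5, day 4, 4 h replicates 1 or 2, day 11, 0 h replicates 2, 4 or 5, or day 11, 4 h replicates 1 or 2.

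In the other direction, GAL rose by 1.84 on day 4 and 5.95 on day 11 (adjusted p of the difference 1.18e-05), INHBA by 1.69 and 4.36 (adjusted p = 0.00286) and FOSB by 1.22 and 3.24 (adjusted p = 0.00163). PLAUR rose by 1.18 and 2.56 (adjusted p = 0.00153) and PLIN2 by 0.71 and 1.52 (adjusted p = 0.00709). ATF3 rose by 1.47 and 3.32 (adjusted p = 0.0247, 0.0507 without day 11, 4 h replicate 4 and 0.051 without day 4, 0 h replicate 3). CFLAR rose by 1.10 and 2.13 (adjusted p = 0.0383). The adjusted p of CFLAR was 0.053 to 0.0889 without day 4, 0 h replicates 1, 3, 4 or 5, day 4, 4 h replicates 2 or 4, day 11, 0 h replicates 1, 3 or 5, or day 11, 4 h replicates 3, 4 or 5.

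For the inflammatory genes named next, the days did not differ beyond the threshold. CCL4 had 4.64 and 4.08 (adjusted p = 0.803), IL1B 3.69 and 3.68 (adjusted p = 0.999), CXCL8 3.42 and 3.28 (adjusted p = 0.98) and NFKBIA 2.24 and 1.41 (adjusted p = 0.597). PTHLH, at -1.92 and -1.92 (adjusted p = 0.998), and POLR1E, at -1.23 and -1.18 (adjusted p = 0.951), also did not. A p that misses the threshold does not show that the days were alike.

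**Figure D5:**
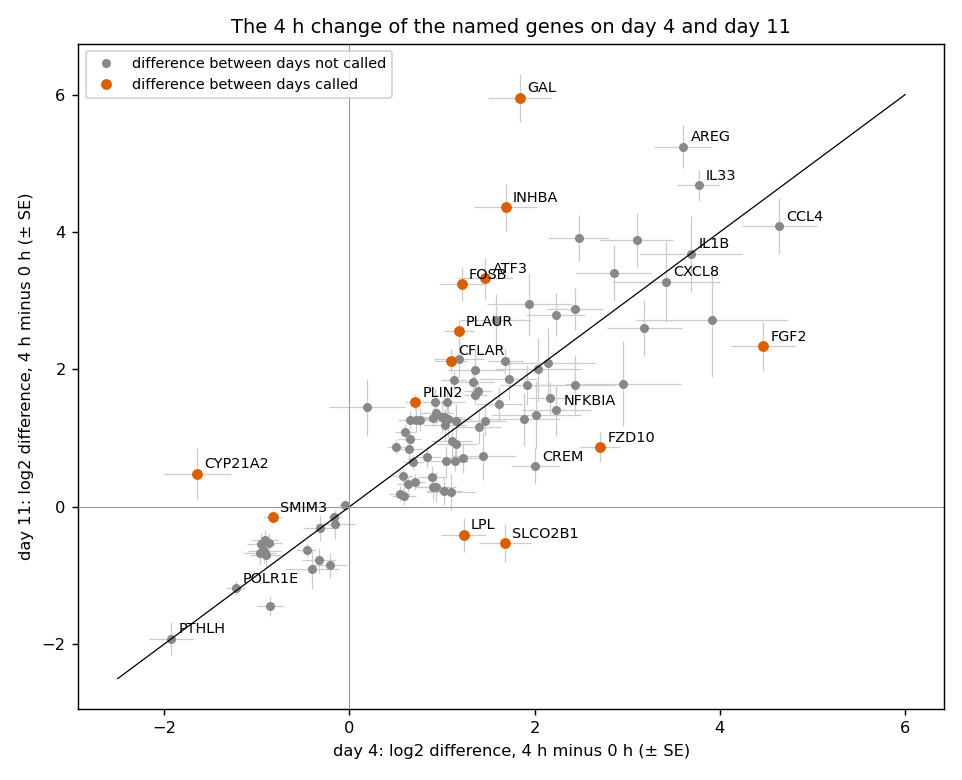
Each point is 1 of the 100 named genes, with its log2 difference between 4 h and 0 h on day 4 on the x axis and on day 11 on the y axis, bars of 1 SE, and the line of equal change. The 13 orange points are genes whose difference between the days was called, such as GAL above the line and FGF2, FZD10, LPL and SLCO2B1 below it.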

How the data were processed

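RNA of 30 luteal tissues was measured on 1 Affymetrix array each. The authors deposited log2 signals per probe set, made with RMA (version not given) per the submitters' processing notes, and these were used as deposited. RMA normalizes arrays to each other, so a shift of all genes would not be seen. Of 24128 probe sets, 112 controls were left out. Of the 24016 tested, 13292 carry 1 gene symbol in the platform annotation, 86 several and 10638 none, and the brightest probe set (mean over 30 arrays) represents each of 9155 genes. All 30 arrays were fitted in limma 3.58.1 (R 4.3.3) with a mean per group, giving 24 residual and 28.2 moderated degrees of freedom, and p-values were adjusted by Benjamini-Hochberg over all probe sets. A difference passing an adjusted p of 0.05 is called. The fit was tested on simulated data.

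Replicate numbers are shared across groups. Deviations from the group mean of day 4 arrays with the same number, 0 h against 4 h, correlated at 0.146 to 0.214. Every such pair passed a criterion of 0.1, but different numbers reached 0.225. Day 4 arrays of the same number at 4 h and 24 h ran from -0.195 to 0.263. Whether the numbers pair the arrays is therefore not settled, and the fit with the number as a block was run beside the unblocked fit. The labels give no shared litter or day.

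The members, the 44 gene lists and the tests were chosen with earlier results of these data known. Genes named are the 15 largest rises and falls without overlap, of each list the 4 called members that changed most, and a panel of luteal and early response genes. Of 100 genes named, 19 are further list members added after their values were seen, and other genes the rule would name are left out, mostly because leaving out 1 array ended their call. S100A8, S100A9, CD68, CSF1R, CD3E, CDH5, TIE1, DCN and COL1A1 are markers. LRIG3, NPC1, LCK, CNN1, IL18, IL1R2, IL1RAP, DAPL1, MUSTN1 and AQP11 are named beyond these 100, after their values were seen. The promoter description planned was not run, as no promoter sequences were used here.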

Additional observations from a re-analysis of the deposited data

Results flagged for a closer look

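In 14 of 200 sets of 5 values (100 genes at 0 h and at 4 h), 1 gland lay far from the other 4, where chance alone flags about 1 in 20 sets. Of these, 3 concern 4 h replicate 4, which was low for CXCR1 (4.24), JUND (11.29) and NFKBIE (7.23). In 4 h replicate 1, CD44 (9.36) was high and PTGFR (10.27) and SRF (7.42) were low. In 4 h replicate 3 SLC2A1 (10.56) was high, and in 4 h replicate 5 EMCN (8.05) was low. At 0 h, replicate 5 was low for CD40 (8.57), ERG (6.88), FOS (8.62) and S100A12 (5.82), replicate 2 low for CDKN1A (8.67) and replicate 3 high for CFLAR (7.71).

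The 4 h change differed between the days for 13 of the 100 genes, chosen largely by their day 4 change, by the test of the difference. The difference, day 11 minus day 4, was 4.11 for GAL, 2.67 for INHBA, 2.13 for CYP21A2, 2.03 for FOSB, 1.86 for ATF3, 1.37 for PLAUR, 1.03 for CFLAR, 0.81 for PLIN2 and 0.68 for SMIM3. It was -2.21 for SLCO2B1, -2.13 for FGF2, -1.84 for FZD10 and -1.64 for LPL.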

How the results depend on the processing

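Array weights raised the count of called probe sets from 1018 to 1981 (1008 higher, 973 lower) and that between 24 and 0 h from 1240 to 2356. An adjusted p under 0.01 left 464 (336 and 128), and a minimum change of 2-fold 226 (210 and 16). Leaving out 1 array gave 608 to 1061 called, 403 to 720 higher and 205 to 358 lower, and, added after the data were seen, 357 to 2071 between 24 and 0 h, 2598 to 3901 between 24 and 4 h and 157 to 356 for the difference between the days. The replicate block gave 1123 (687 and 436) and changed no call among the 100 genes named (LRIG3, named beyond these, lost its call). In a fit to the 10 arrays with that block, also added later, 1239 were called. Quantile normalization gave 1056 (623 and 433), subtracted medians 1139 (606 and 533), the 10 arrays alone 1164, the 15 day 4 arrays 1125, a trended robust variance 981 and leaving out the dimmest 30% 1071, a filter under which dim genes such as PTGS2 and FZD10 have no value. Of all 483 called genes, 232 (48%) were called under all alternatives of the same threshold. The share among the genes named is higher by choice, since genes whose call ended without 1 array were mostly left out. Of the 92 called among those 100, the ones that lost the call under an alternative were PTGS2, GRO1, CREM, MYH7, SELP, CD14, S100A12 and PECAM1, with the values given above. FOS, not called, ran from -0.0908 (without 0 h replicate 5) to 0.351 (without 4 h replicate 4) when 1 array was left out. The causes were not tested. Signals near the floor of the array, as for CXCL2, PLEK, FZD10 and FGF2 at 0 h, limit the size of a fold.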
